A study of Mus musculus with 4 samples.

Results

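The enzymes that write methylation on lysine 9 of histone H3 (H3K9), their cofactors and the HP1 proteins that read the mark are encoded by genes that themselves sit in chromatin where the mark may or may not be found. Here 10 such genes were described, chosen by name: 5 writers (Setdb1, Setdb2, Suv39h2, Ehmt1 and Ehmt2), 2 cofactors (Trim28 and Atf7ip) and 3 HP1 readers (Cbx1, Cbx3 and Cbx5). They are 10 of 21887 protein-coding genes placed on the main chromosomes of mm10. H3K9me3, the trimethylated form, was mapped by native ChIP-seq, in which chromatin cut with micrococcal nuclease is immunoprecipitated, in mouse muscle stem cells grown in vitro. One culture was treated for 72 h with 4-hydroxytamoxifen to delete Setdb1, and one with ethanol as control. The labels give the genotype of the 4-hydroxytamoxifen library as Setdb1lox/lox;Pax7GakaCreERT3 and that of the ethanol library as Setdb1lox/lox;Pax7GakaCreERT2, and the last digit runs from 2 to 5 over the 4 libraries of the study. Both cultures therefore carried floxed Setdb1 and a Cre linked to Pax7, a gene of muscle stem cells. With 1 H3K9me3 library for each condition, no difference could be set against a spread between replicates, and no test was made.

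SETDB1 deposits H3K9me3 at retroelements and other targets, to which it is brought by TRIM28 and the zinc finger proteins that bind it. ATF7IP binds SETDB1 and keeps it stable in the nucleus. SUV39H2 trimethylates H3K9 in heterochromatin near centromeres, EHMT1 and EHMT2 work as a heterodimer that adds fewer methyl groups, and SETDB2 is a relative of SETDB1. The HP1 proteins bind methylated H3K9 through a chromodomain and help to compact the chromatin.

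The deposited values were peak lists, 113503 peaks covering 134 Mb in the 4-hydroxytamoxifen list and 105709 peaks covering 133 Mb in the ethanol list. The ratio of covered length, 4-hydroxytamoxifen over ethanol, ran from 0.504 on chromosome 6 to 2.26 on X and from 0.845 to 1.23 on the other chromosomes. Sequencing depth is unknown. A region without a peak is one that the authors' peak caller did not report, which does not show that the mark is absent. A list cannot tell fewer cells with the mark from less of the mark per cell. The lists hold no expression values and no reads, so neither the excision of Setdb1 nor the identity of the cells could be checked. The muscle stem cell and myogenic genes Pax7, Myf5, Myod1 and Myog had 0% of their windows (gene plus 5 kb) covered in both lists. Of all coding genes, only 30.1% and 29% had a window peak, so these 4 values show nothing about identity.

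The starts of the 10 genes were free of peaks in both lists. RefSeq's promoter table (GRCm38.p6, 250 bases before to 50 after each start) held 13 promoters for the 10 genes. Of these, 0 were overlapped by a peak in the 4-hydroxytamoxifen list and 0 in the ethanol list. Among 21263 promoters of protein-coding genes, 1.83% were overlapped in the 4-hydroxytamoxifen list and 1.82% in the ethanol list, so a count of 0 is close to that background. The start sites nearest to a peak were those of Atf7ip, 4.28 kb away in the 4-hydroxytamoxifen list and 3.98 kb away in the ethanol list.

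The member promoters were rich in the dinucleotide CG, which reads the same on both strands and occurs at least once in 95.4% of coding promoters. Their CG counts ran from 8 to 40 with a median of 29, against a median of 13 in coding promoters. In all, 12 of the 13 lay above that median. GC content ran from 52.7% to 82.7%, with a median of 66.3% against 56.3%. Of the 10398 coding promoters above the median CG count, 1 was overlapped by a peak in the 4-hydroxytamoxifen list and 0 in the ethanol list. Of the 10865 at or below it, 388 (3.57%) and 387 (3.56%) were overlapped. How far GC content shaped the recovery of fragments or the calling of peaks was not tested.

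**Figure D1:**
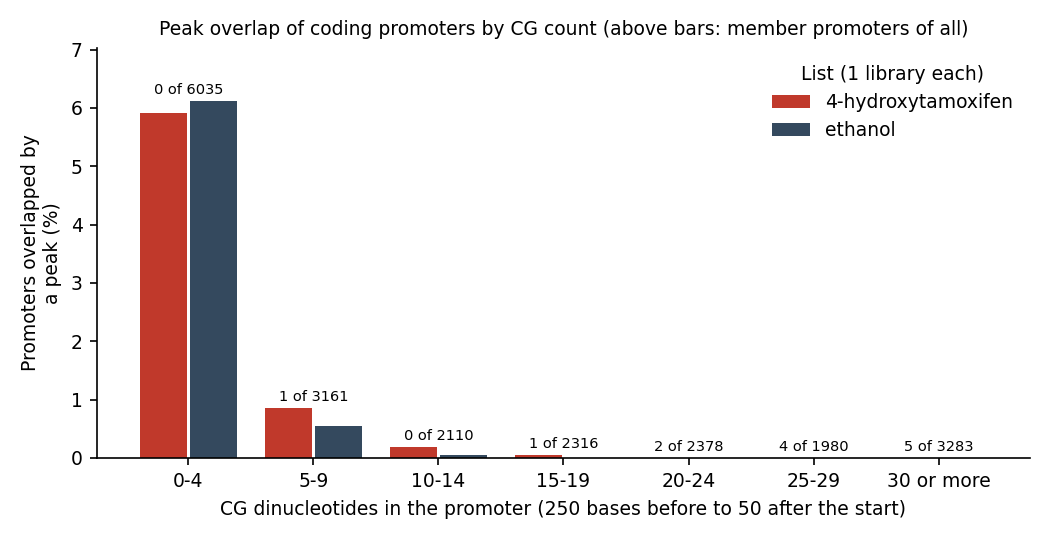
Percent of coding promoters overlapped by a peak (vertical axis) against the number of CG dinucleotides in the promoter (horizontal axis), in the 4-hydroxytamoxifen list (red, left) and the ethanol list (dark, right). Numbers above the bars give member promoters of all promoters in the class. Overlap was 5.92% and 6.11% in the class with 0 to 4 CG and 0% in both lists from 20 CG upward, where 11 of the 13 member promoters lie.

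The promoters below hold 8 to 29 CG, with each CG in capitals and bases given 5′ to 3′ on the gene's strand. They are those of Setdb1, the deleted gene (chr3:95357153-95357452, minus strand, 15 CG), and of Atf7ip, the member with most peaks (chr6:136518601-136518900, plus strand, 29 CG). Cbx5 has 2 promoters of unlike composition. Its outer promoter holds 29 CG (chr15:103239803-103240102, minus strand), and its inner promoter holds 8, the fewest of all members (chr15:103215303-103215602, minus strand).

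Setdb1: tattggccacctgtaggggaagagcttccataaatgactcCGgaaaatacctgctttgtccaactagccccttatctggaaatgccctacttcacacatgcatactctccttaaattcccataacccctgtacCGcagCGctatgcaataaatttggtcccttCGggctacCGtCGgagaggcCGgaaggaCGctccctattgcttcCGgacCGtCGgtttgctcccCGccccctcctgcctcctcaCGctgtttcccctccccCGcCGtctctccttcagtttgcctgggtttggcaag
Atf7ip: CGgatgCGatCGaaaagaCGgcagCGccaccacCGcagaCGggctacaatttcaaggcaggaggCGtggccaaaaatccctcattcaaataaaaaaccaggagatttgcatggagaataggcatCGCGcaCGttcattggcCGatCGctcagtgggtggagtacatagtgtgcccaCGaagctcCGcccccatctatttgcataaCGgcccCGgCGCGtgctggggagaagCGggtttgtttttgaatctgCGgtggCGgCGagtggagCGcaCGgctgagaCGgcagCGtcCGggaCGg
Cbx5 outer: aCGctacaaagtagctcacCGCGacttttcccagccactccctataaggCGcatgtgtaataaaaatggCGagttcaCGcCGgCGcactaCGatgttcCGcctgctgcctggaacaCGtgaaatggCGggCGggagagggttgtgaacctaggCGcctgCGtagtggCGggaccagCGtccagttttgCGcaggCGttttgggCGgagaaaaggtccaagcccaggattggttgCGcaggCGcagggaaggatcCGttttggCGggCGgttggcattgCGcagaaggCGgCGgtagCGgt
Cbx5 inner: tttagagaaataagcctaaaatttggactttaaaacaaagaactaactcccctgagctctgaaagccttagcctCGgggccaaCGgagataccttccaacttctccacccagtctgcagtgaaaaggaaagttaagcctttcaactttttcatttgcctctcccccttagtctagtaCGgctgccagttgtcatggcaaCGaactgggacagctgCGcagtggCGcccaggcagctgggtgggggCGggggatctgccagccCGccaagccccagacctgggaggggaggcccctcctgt

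The inner Cbx5 promoter was 84.4 kb from the nearest peak in the 4-hydroxytamoxifen list and 220.7 kb in the ethanol list. The outer one was 108.9 kb and 196.2 kb away.

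Peaks reached the gene window, which is the gene plus 5 kb on both sides, for 2 of the 10 members in the 4-hydroxytamoxifen list (Atf7ip and Cbx3). In the ethanol list they did so for 3 (the same pair and Setdb1). Of all protein-coding genes, 30.1% had a window peak in the 4-hydroxytamoxifen list and 29% in the ethanol list, so the members' counts were near the background. Mean window coverage of the members was 0.861% and 1.61%, against 2.89% in both lists for all protein-coding genes, and the median was 0% for members and for all genes. Almost all of the members' covered bases were at Atf7ip. Without the members on chromosomes 6 and 14 the mean was 0% and 0.127%.

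**Figure D2:**
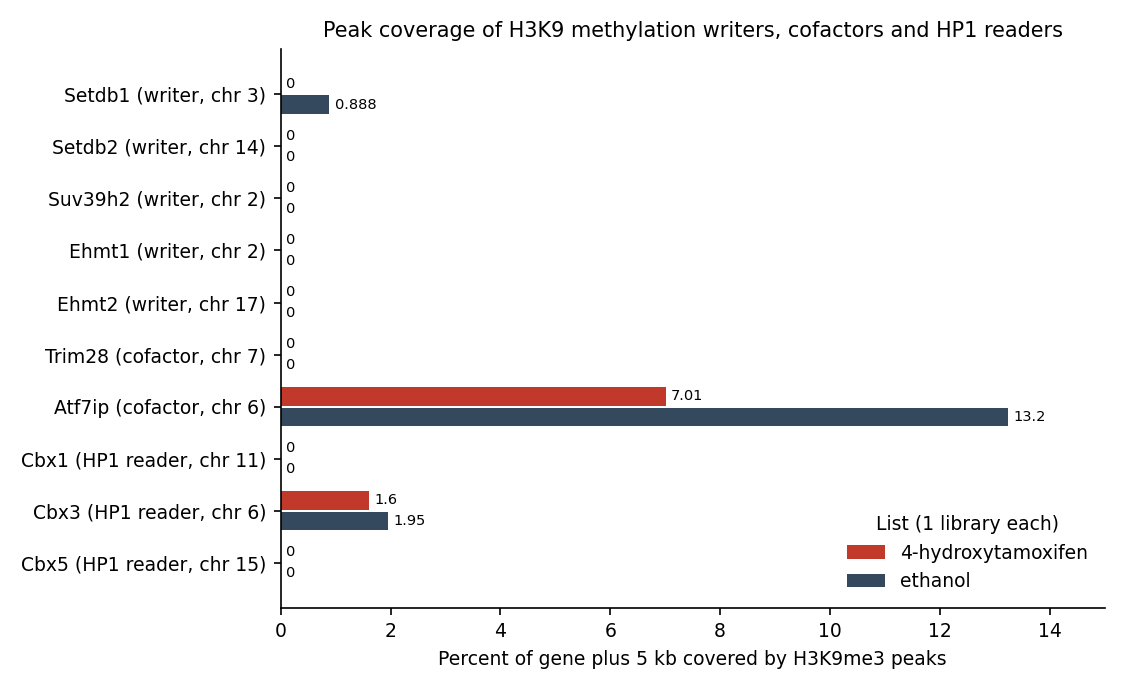
Percent of each gene plus 5 kb that peaks cover (horizontal axis) in the 4-hydroxytamoxifen list (red, upper bar) and the ethanol list (dark, lower bar), for the 10 genes with their role and chromosome. Only Atf7ip, Cbx3 and Setdb1 have a bar, and 7 genes are at 0 in both lists.

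Setdb1, the gene under deletion, lies on chromosome 3 from 95323525 to 95357202 on the minus strand. Its window had no peak in the 4-hydroxytamoxifen list and 1 peak in the ethanol list. That peak ran from 95348863 to 95349250, a stretch of 388 bp inside the gene whose midpoint is 8.15 kb downstream of the start. The gene table gives no exons, so its place relative to exons and loxP sites is not known here. The authors' fold enrichment of the peak was 2.63, above 60.6% of the peaks of the ethanol list, and its −log10 q was 1.53. The nearest peak of the 4-hydroxytamoxifen list to it was 26.6 kb away. Among peaks with −log10 q of 2 or more, Setdb1 had no window peak in either list.

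Outside the gene, both lists had the same nearest peak, upstream of Setdb1. It ran from 95375840 to 95379035 in the 4-hydroxytamoxifen list, with a fold of 3.10, and from 95375421 to 95379125 in the ethanol list, with a fold of 2.61. It began 18.6 kb from the gene in the 4-hydroxytamoxifen list and 18.2 kb in the ethanol list, and the nearest coding gene to it was 4930558C23Rik. The fold ranked above 96.4% of the 4-hydroxytamoxifen list and above 58.2% of the ethanol list. Coverage of Setdb1 plus 50 kb was 2.63% and 3.06%. Covered length on chromosome 3 as a whole had a 4-hydroxytamoxifen-to-ethanol ratio of 0.922.

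The other writers had no window peak in either list. Setdb2 (chromosome 14, 59402009 to 59440880, minus strand) was 445.4 kb from a peak in the 4-hydroxytamoxifen list, the farthest of the members there, and 205.1 kb in the ethanol list, where Cbx1 was farther. It stood in a peak-free stretch of 1095 kb in the 4-hydroxytamoxifen list and 1117 kb in the ethanol list. Chromosome 14 was sparse in both lists, with 568 and 654 peaks and a median gene-to-peak distance of 259.3 and 264.2 kb, so most of its genes were far from a peak. The peak nearest to Setdb2 in the ethanol list, close to Rcbtb1, had a fold of 3.03 and no partner in the 4-hydroxytamoxifen list.

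Suv39h2 and Ehmt1, both on chromosome 2, had similar distances in the lists when all peaks were used. Suv39h2 (3455815 to 3474986, minus strand) was 73.3 kb from a peak in the 4-hydroxytamoxifen list and 74.8 kb in the ethanol list, though these 2 peaks lie on opposite sides of the gene. Its peak-free stretch was 172.5 kb and 239.7 kb. Ehmt1 (24790769 to 24919643, minus strand) was 9.17 kb and 8.84 kb from a peak beyond its 3′ end, and the 2 peaks overlapped by 840 bp. On the side of its start the next peak was 197.6 kb and 197.5 kb away, near Noxa1, and was again shared. At −log10 q of 2 or more the 4-hydroxytamoxifen minus ethanol difference in distance was 5.22 kb for Suv39h2, against -1.55 kb with all peaks, and -198.2 kb for Ehmt1, against 0.323 kb.

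Ehmt2 (chromosome 17, 34898463 to 34914073, plus strand) was nearer to a peak in the 4-hydroxytamoxifen list, at 29.7 kb, than in the ethanol list, at 92.1 kb. The nearer peak, of 320 bp, lay in C2, a complement gene, with a fold of 2.49 above only 27.4% of its list. It had no partner in the ethanol list. The difference turned with the threshold: it was -62.4 kb with all peaks, 13.9 kb at −log10 q of 2 or more and 0.426 kb when each list was limited to its stronger peaks, those with a fold not below the list's median. Within 500 kb of the gene, coverage was 2.60% and 1.97%, with 22 and 15 peaks.

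Among the cofactors, Trim28 and Atf7ip lay in contrasting surroundings. Trim28 (chromosome 7, 13024152 to 13031032, plus strand) had no peak within 50 kb, and the nearest was at 68.2 kb in the 4-hydroxytamoxifen list and 64.7 kb in the ethanol list. Its peak-free stretch measured 222.8 kb and 224.5 kb. It ended near Zfp128, a zinc finger gene, on one side and near Vmn1r86, a pheromone receptor gene, on the other. Beyond that stretch peaks were dense. Coverage of Trim28 plus 500 kb was 9.38% and 9.40%, with 58 and 52 peaks, the highest of the 10 members in both lists. The 4-hydroxytamoxifen-to-ethanol ratio of covered length was 0.998 for Trim28 plus 500 kb and 1.23 over chromosome 7. Such a difference was not particular to Trim28: Cbx5 plus 500 kb had a ratio of 1.813, against 1.065 over chromosome 15. At Atf7ip the 2 ratios were close, at 0.520 and 0.504. The spread of local ratios within a chromosome was not computed, so whether the surroundings of Trim28 departed from their chromosome was not tested.

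**Figure D3:**
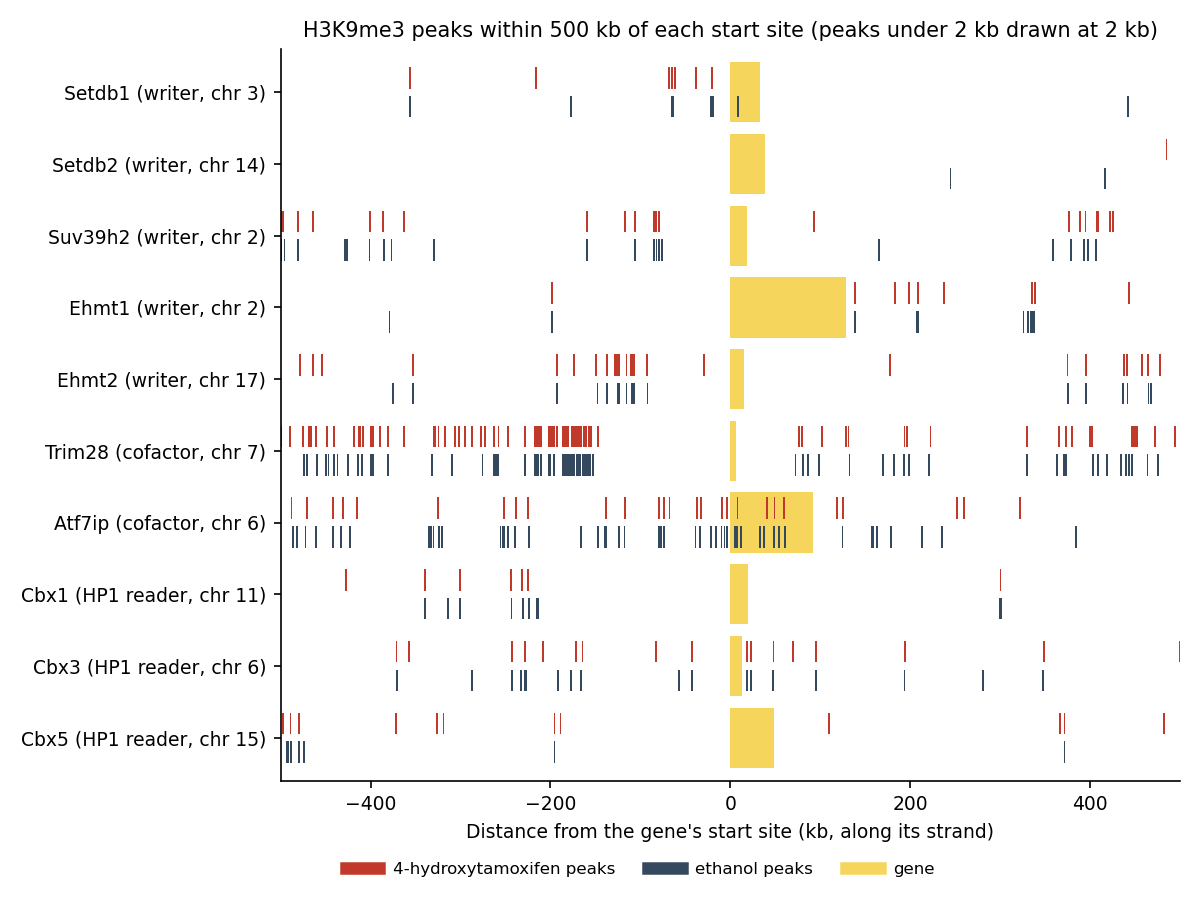
Peaks within 500 kb of each member's start site, by distance along the gene's strand (horizontal axis), in the 4-hydroxytamoxifen list (red, upper row of each gene) and the ethanol list (dark, lower row), with the gene in yellow. Trim28 lies in a gap of 222.8 kb and 224.5 kb beside dense peaks, Atf7ip has peaks within the gene, and Setdb2 has 1 peak in the 4-hydroxytamoxifen list and 2 in the ethanol list in view.

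Atf7ip (chromosome 6, 136518789 to 136610850, plus strand) carried the most peaks of any member. Its window of 102062 bases held 5 peaks in the 4-hydroxytamoxifen list and 9 in the ethanol list. They covered 7150 bases (7.01%) and 13506 bases (13.2%), a difference of -6.23 percentage points. Of these peaks, 4 and 8 lay inside the gene and 1 in each list lay upstream of the start, where the pair overlapped by 689 bp. Widths ran from 715 to 2020 bp in the 4-hydroxytamoxifen list and from 341 to 2996 bp in the ethanol list.

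Most of the 4-hydroxytamoxifen coverage at Atf7ip lay where the ethanol list also had a peak. In bases, 72.1% of the 4-hydroxytamoxifen coverage was shared and 38.1% of the ethanol coverage. By peaks, 4 of 5 and 4 of 9 had a partner, against 50.1% and 53.0% of all peaks in the 2 lists. Covered length on chromosome 6 was 7.73 Mb in the 4-hydroxytamoxifen list and 15.33 Mb in the ethanol list. Unequal shares are therefore not read as particular to Atf7ip. The shared intragenic peaks began at 136525950, 136567051 and 136577816 in the 4-hydroxytamoxifen list, with folds of 2.80, 2.54 and 2.69. The 5 ethanol peaks without a partner had folds from 2.33 to 2.80. One 4-hydroxytamoxifen peak, from 136558403 to 136559651 with a fold of 2.52, had no ethanol partner and lay 2.99 kb from the nearest.

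The lower coverage of Atf7ip went with that of its chromosome. The 4-hydroxytamoxifen-to-ethanol ratio was 0.529 in the Atf7ip window, 0.562 with 50 kb, 0.520 with 500 kb and 0.504 over chromosome 6. Of 519 coding genes on chromosome 6 with a window peak in either list, 425 were covered less in the 4-hydroxytamoxifen list and 94 more. Their quartiles stood at -7.58 and -0.320 percentage points, with a median of -1.63. Atf7ip was lower in the 4-hydroxytamoxifen list by more than 1 percentage point, as were 27.3% of chromosome 6 genes and 10.1% of all protein-coding genes. With gene plus 5 kb it was the only member lower by that much, and 0 members were higher by as much, against 11.9% of all genes. On the gene body alone Setdb1 also passed that mark, at -1.15 points, and with 10 kb or 50 kb Cbx3 did. The part of the chromosome-wide difference in the Atf7ip value was not tested. With peaks joined within 5 kb the difference at Atf7ip was -15.1 points, and it was -3.97 points with the stronger peaks of each list. A −log10 q threshold of 2 left -3.33 points, and at a threshold of 3 no peak was left there in either list.

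Of the HP1 genes, Cbx3 had 1 peak in its window in each list, and Cbx1 and Cbx5 had none. Cbx3 (HP1γ; chromosome 6, 51470154 to 51483704, plus strand) had 4 peaks within 50 kb of its start in each list, and its window peak lay beyond the 3′ end. That peak ran from 51488067 to 51488443 in the 4-hydroxytamoxifen list and from 51487872 to 51488329 in the ethanol list, and 263 bp were shared. Window coverage was 1.60% and 1.95%, a ratio of 0.823, and with 50 kb it was 2.44% and 3.49%, a ratio of 0.698. Both ratios were above that of chromosome 6, and the first rests on 1 peak per list. Cbx3 was 4.36 kb and 4.17 kb from this peak.

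Cbx1 (HP1β; chromosome 11, 96788680 to 96808982, plus strand) was far from peaks in both lists, at 223.7 kb in the 4-hydroxytamoxifen list and 211.9 kb in the ethanol list. These peaks lay in Skap1 and did not overlap each other. The 4-hydroxytamoxifen peak shared 896 bp with the ethanol list, in an ethanol peak farther from Cbx1, and the nearer ethanol peak had no partner. On the other side the next peak was shared, 279.7 kb and 279.5 kb away near Tbx21. Of all coding genes, 90.9% and 88.5% were nearer to a peak than Cbx1 was.

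Cbx5 (HP1α; chromosome 15, 103191546 to 103239904, minus strand) was 60.6 kb from a peak in the 4-hydroxytamoxifen list and 196.1 kb in the ethanol list. The nearer peak, of 442 bp near Smug1, had a fold of 2.75 and no ethanol partner, the closest being 261.5 kb off. Coverage of Cbx5 plus 500 kb was 0.758% and 0.418%, with 12 and 7 peaks. As for Ehmt2, the direction turned with the threshold: the difference was -135.5 kb with all peaks and 128 kb at −log10 q of 2 or more.

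Over the 10 genes, the gene-to-peak distance had a median of 45.2 kb in the 4-hydroxytamoxifen list and 69.8 kb in the ethanol list, against 25.05 kb and 28.99 kb for all protein-coding genes. In the 4-hydroxytamoxifen list 3 members were nearer to a peak than in the ethanol list (Suv39h2, Ehmt2 and Cbx5), and 46.2% of all coding genes were. Another 6 were farther (Setdb1, Setdb2, Ehmt1, Trim28, Cbx1 and Cbx3), and 37.7% of all coding genes were. Atf7ip was at 0 in both. A ratio beyond 1.5 was found for 3 genes, at 2.17 for Setdb2, 0.322 for Ehmt2 and 0.309 for Cbx5. For Suv39h2, Ehmt1, Trim28, Cbx1 and Cbx3 it lay between 0.979 and 1.06 with all peaks. This too changed with the threshold: at −log10 q of 2 or more the difference was 89.0 kb for Trim28 and 138 kb for Cbx3, against 3.57 kb and 0.195 kb with all peaks. With the same number of peaks in both lists it was 29.4 kb for Trim28. For Setdb2 the difference kept its direction but not its size. It was 240.3 kb with all peaks, 1676 kb with the stronger peaks of each list and 3056 kb at −log10 q of 2 or more. Setdb1 has no ratio, since it held a peak in the ethanol list. The order of the member medians also turned at −log10 q of 2 or more. The medians were then 129.8 kb in the 4-hydroxytamoxifen list and 83.5 kb in the ethanol list.

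**Figure D4:**
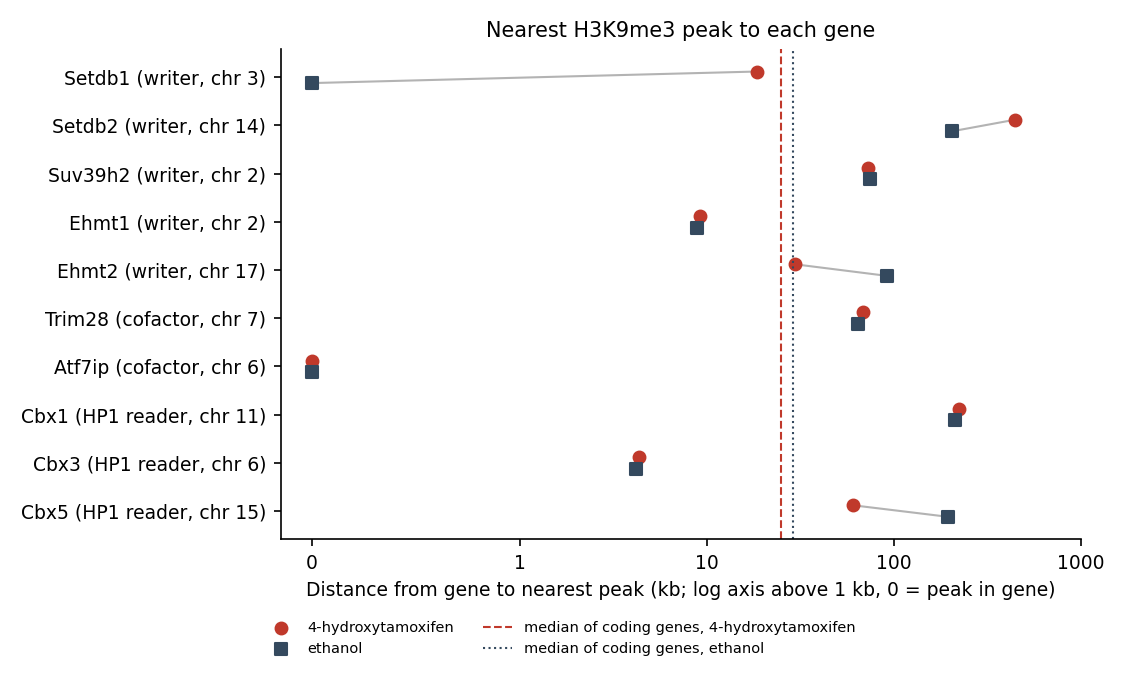
Distance from each gene to its nearest peak in kb (horizontal axis, logarithmic above 1 kb, 0 where a peak lies in the gene) in the 4-hydroxytamoxifen list (red circles, upper) and the ethanol list (dark squares, lower), with lines at the medians of all protein-coding genes. Setdb1 and Setdb2 are farther from a peak in the 4-hydroxytamoxifen list, Ehmt2 and Cbx5 nearer, and the other 6 differ little with all peaks.

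The peaks in the 10 windows and the nearest on either side of each gene were 24 distinct peaks in the 4-hydroxytamoxifen list and 29 in the ethanol list. Of these, 13 (54.2%) and 15 (51.7%) overlapped a peak of the other list, close to the 50.1% and 53.0% of all peaks.

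By the count with a window peak, other genes of the pathway were near the background too. Of 42 further genes for writers, cofactors, readers, the HUSH silencing complex, demethylases, Polycomb chromobox proteins and DNA methyltransferases, 14 had a window peak in the 4-hydroxytamoxifen list and 12 in the ethanol list, near the 30.1% and 29% of all coding genes. Between the lists 7 were covered more in the 4-hydroxytamoxifen list, 7 less and 28 equally, with 2 higher and 5 lower by over 1 percentage point, against 11.9% higher and 10.1% lower of all coding genes. Mean coverage was 0.861% and 1.07%, below the 2.89% of all coding genes in both lists. No gene of the HUSH complex (0 of 4), of the Polycomb chromobox family (0 of 5) or of the DNA methyltransferases (0 of 4) had a window peak in either list, and in groups of this size nothing is read from a count of 0, since most coding genes had none.

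Resf1, which encodes a partner of SETDB1 in retroelement silencing and lies on chromosome 6, was covered at 0.891% in the 4-hydroxytamoxifen list and 4.64% in the ethanol list. Kdm4d, an H3K9 demethylase gene, was at 2.24% and 5.73%. Atf7ip2, the paralog of Atf7ip, was at 3.62% and 5.75%, and Cdyl2, a chromodomain gene, at 4.65% and 6.54%. Lrif1, whose protein binds HP1, was the most covered of the 42, at 15.9% and 14.5%. Phf8, an X-linked demethylase gene, was at 1.24% and 0%, on a chromosome whose covered length had a ratio of 2.26. Suv39h1, the X-linked partner of Suv39h2 in heterochromatin, had no window peak and was 64.3 kb and 250.9 kb from the nearest. All 3 pathway genes on X were nearer to a peak in the 4-hydroxytamoxifen list, as were 46.2% of all coding genes. Over all coding genes of X the median distance was 45.95 kb in the 4-hydroxytamoxifen list and 102.8 kb in the ethanol list. Nothing about the pathway is therefore read from these 3.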

How the data were processed

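The deposited files were 2 broad peak lists, 1 for each condition, from a study of 4 libraries (H3K9me3 and input). The input libraries were not used here. The submitters' processing notes name BWA 0.7.17-r1188, MACS2, ChIPseeker 1.30.3 and mm10. Settings of MACS2, its version, any use of input and any pooling are not given in the sources used here. For each peak the authors deposited a fold enrichment (a ratio), −log10 p, −log10 q and a score, the last not used. Because peak names and sample labels differ in replicate number, each list was matched to its library through antibody and condition.

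Only chromosomes 1 to 19, X and Y entered (185 and 155 peaks on scaffolds did not). Genes and promoters came from RefSeq tables of GRCm38.p6, whose main chromosomes are those of mm10, and all 10 members matched. Distance runs from gene edge to peak edge. Coverage, distance and overlap of at least 1 bp were computed with Python 3.11.15, pandas 2.3.3 and numpy 2.4.6, checked on simulated lists and plotted with matplotlib 3.10.9. The members and lists were chosen with earlier results of these data known. Also named are Suv39h1, up to 4 pathway genes each with the largest lower and higher coverage past 1 percentage point, and the coding genes nearest to the peaks described. Alternatives covered peak threshold, list size, joining, window, overlap rule and chromosomes. The distance from start sites was added after seeing the data.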

Additional observations from a re-analysis of the deposited data

Results flagged for a closer look

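Peaks on unplaced scaffolds enter no comparison above. They numbered 185 in the 4-hydroxytamoxifen list and 155 in the ethanol list, more than in the control, but the 4-hydroxytamoxifen list was also the longer on the main chromosomes (113503 and 105709 peaks). The difference was not tested. None of the 10 genes lies on such a scaffold.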

How the results depend on the processing

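Of 214 alternative values for 33 results, 148 stayed within 1.5 times the value given above, 61 moved further and 5, among differences in distance beyond a ratio of 1.5, changed direction. Sign changes of smaller differences were counted as moved. Many of the 148 were 0 under both settings, such as coverage differences of members without a window peak. A stricter threshold or a smaller window could not change those. No paired analysis was possible because there was 1 library in each group, so no replicate could be left out either. Unknown depth limits every comparison of the lists. A stricter threshold takes peaks away by construction, and joining lengthens them. Causes beyond these were not tested.

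At −log10 q of 2 or more, 13039 and 19912 peaks remained. Mean window coverage of the members was 0.198% in the 4-hydroxytamoxifen list and 0.531% in the ethanol list, and 1 and 1 members had a window peak. Median distances were 129.8 kb and 83.5 kb, the reverse of the order with all peaks. The 4-hydroxytamoxifen minus ethanol distance turned to 13.9 kb for Ehmt2 and 128 kb for Cbx5. Of the other pathway genes, 5 and 5 had a window peak, and their mean difference was -0.0859 points. At 3 or more, 1120 and 1937 peaks remained. Mean coverage was 0% and 0%, with 0 and 0 members having a window peak and 0 lower by over 1 point. Median distances were 2196 kb and 901.6 kb, and the differences turned to 1024 kb for Ehmt2 and 1757 kb for Cbx5. With only peaks not below the median fold, Ehmt2 turned to 0.426 kb.

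With peaks joined within 5 kb the ethanol mean was 2.66%. On the gene body alone 1 member had a peak in the 4-hydroxytamoxifen list, and the mean difference of the other pathway genes was -0.102 points. Members lower by over 1 point numbered 2 on the gene body alone (Setdb1, at -1.15 points, and Atf7ip). They numbered 2 with 10 kb and 2 with 50 kb (Atf7ip and Cbx3, the latter at -1.70 and -1.05 points). With 50 kb 5 members had a peak in the 4-hydroxytamoxifen list. The share of all coding genes was computed only for gene plus 5 kb with all peaks. Counts of members at other windows and thresholds therefore have no background here. Without the members on chromosomes 6 and 14 the means were 0% and 0.127%. Measured from start sites, the median distance in the 4-hydroxytamoxifen list was 77.6 kb.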
